A study of Schmidtea mediterranea with 177 samples.

Results

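Muscle cells from the anterior part of the planarian body were set against muscle cells from its posterior part, across all transcripts, with most attention to transcripts that are not among the known positional genes. The cells were chosen by their labels alone: those annotated as muscle from regions 1, 2 and 3 (11, 6 and 6 cells, 23 in all), and those annotated as muscle from regions 8, 9 and 10 (13, 13 and 12 cells, 38 in all). These 61 cells belong to 115 muscle cells among 177 sequenced cells, each from 1 of 10 adjacent regions numbered head to tail. Both groups share the asexual CIW4 strain of Schmidtea mediterranea, starvation before dissection, the midline strip between the ventral nerve cords, a sort for non-dividing cells by DNA content, and a qRT-PCR screen of the amplified cDNA for collagen and troponin. The labels give neither a knockdown nor an age, and no animal, day or plate is named. Each region's muscle cells were therefore summed into 1 sample, and a p-value here measures the spread among the 3 regions of a group, which are different body positions and may share animals.

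Planarian body-wall muscle, beside contracting, secretes signals that tell neighbouring cells where in the body they lie. Several Wnt ligands and targets of Wnt signalling mark the tail, while other Wnt ligands, such as wntA and wnt2, are expressed further forward. Secreted Wnt inhibitors and members of the FGFRL family mark the head and other zones. FGFRL proteins resemble fibroblast growth factor receptors without the kinase part. Hox genes encode homeobox transcription factors used in many animals to set position along the body. Genes of this kind, expressed by muscle in restricted zones, are called muscle regionally expressed genes (mRGs). The study picked its 44 mRGs in part by their levels in these very cells, so what they show below is a description and no independent evidence of their direction. Planarian names are given for mRGs, names without a planarian root are those of the best human protein match in the study's supplement, and the roles given with them are those of the human proteins. The count table holds identifiers alone and the supplement pairs some of them with names, so a transcript without a match keeps its identifier, shortened in most cases (dd_53369 is dd_Smed_v4_53369_0_1).

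Levels are given in cpm, the reads of a transcript scaled to a fixed total of all reads in a region's summed muscle cells. The libraries carry no molecular identifiers, so intervals and floors cover counting error only. Median depth per cell was 319727, 487030 and 376909 reads in regions 1 to 3, against 193974, 162415 and 1238250 reads in regions 8 to 10. Region 10 gave 16493156 of the 23645690 posterior reads. Shares of reads from 1 cell, and ratios and floors over a whole group, use pooled reads, so posterior ones weigh region 10 most. Median numbers of transcripts with more than 2 reads per cell were 3909, 2049 and 2300 in the anterior regions and 3166, 2627 and 4118 in the posterior regions, a difference of means of −551 (exact permutation test over regions, two-sided p = 0.5, with 0.1 the smallest p that 3 against 3 allows). The cell numbers in the library titles fall into 3 ranges, named number blocks A, B and C here from low to high, and what a range stands for is not stated. Blocks A, B and C hold 18, 5 and 0 of the anterior cells, and 6, 17 and 15 of the posterior cells. All 6 posterior cells of block A are of region 8, so values within block A set regions 1 to 3 against region 8 alone. The 5 anterior cells of block B are 3 of region 1 and 2 of region 3. Block and body position therefore overlap only in part, and within-block values stand beside the results they touch.

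The sequences that identify 4 of the transcripts described below are the inner primers of the study's in situ hybridization probes, printed 5′ to 3′. They are shown because these transcripts stand at the extremes of the comparison: lox5a carries its single call, ndl-2 is the positional transcript with the lowest p among those higher in the anterior, and XPO5 and LMBR1L are non-positional transcripts near absence in 1 of the groups.
lox5a, forward: ccggcaatacttgttaatgatgt
lox5a, reverse: cgtcgacgtcttgtgaggt
ndl-2, forward: tgcaacaggaaggaaagttactg
ndl-2, reverse: accctgttgaaccaagcca
XPO5, forward: gcgaaccattagagatccaagc
XPO5, reverse: acgctctgtggccattcc
LMBR1L, forward: tcactgtgcatatcaagtggca
LMBR1L, reverse: aggatctgtatgacctttggaga

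A single transcript, the Hox gene lox5a, passed the test across all transcripts, and it fell in anterior muscle. Of 11681 transcripts tested with edgeR's quasi-likelihood test on the region sums, 1 (0.00856%) had a Benjamini-Hochberg adjusted p under 0.05, with 0 higher and 1 lower in anterior muscle. DESeq2 on the same sums made 196 calls, 35 higher and 161 lower. An unadjusted p under 0.05 was met by 634 transcripts (5.43%), of which 110 were higher (0.942%) and 524 lower (4.49%) in anterior muscle. This split moved with the scaling: with library size alone it was 180 higher and 436 lower, since TMM scaling placed the median log2 fold change of all tested transcripts at −0.25 and library size alone placed it at 0.08. Detection was sparse, and 5667 of the tested transcripts (48.5%) had more than 2 reads in 10 cells or fewer. Ranked by p, the first 100 transcripts held 16 mRGs, and 17 of them were higher and 83 lower in anterior muscle, with 57 detected in 10 cells or fewer.

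**Figure D1:**
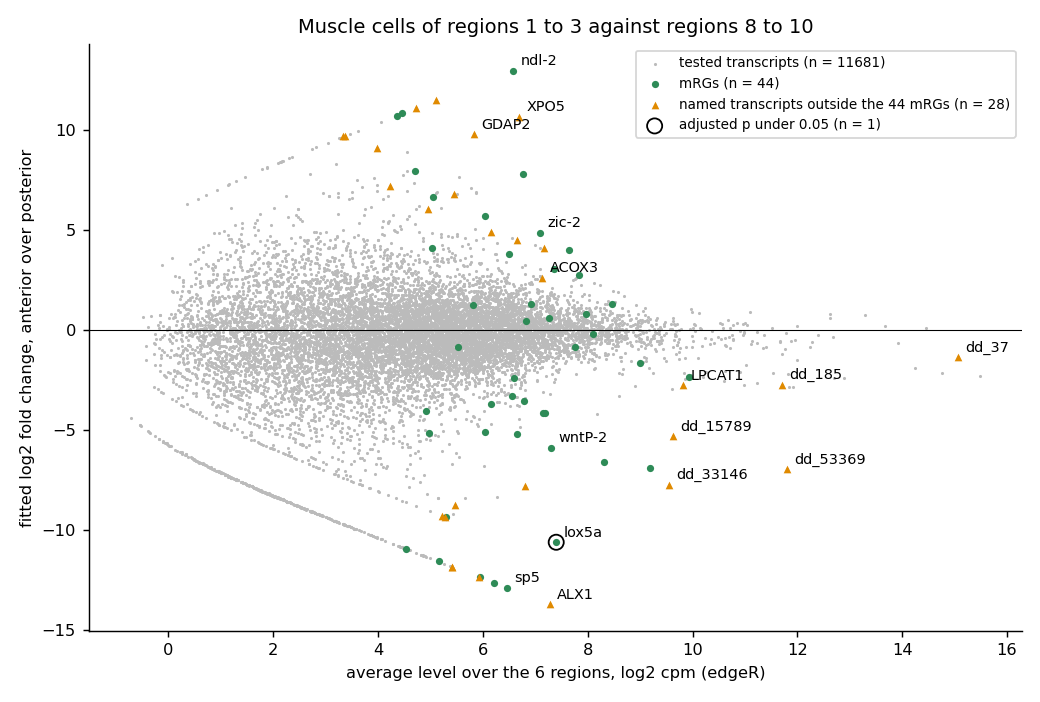
Fitted log2 fold change, anterior over posterior muscle, against average level in log2 cpm for the 11681 tested transcripts (grey), the 44 mRGs (green), named transcripts outside the mRGs (orange triangles) and the 1 called transcript (black ring). Transcripts with 1 group at 0 reads lie at the largest fitted values of either sign, where the fit depends on the prior count, while the abundant dd_37 lies close to the zero line.

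The Hox genes among the mRGs were all lower in anterior muscle. lox5a, whose best human match is HOXB7, had 0.550, 0 and 0 cpm in regions 1 to 3, against 369, 179 and 371.4 cpm in regions 8 to 10. The groups did not overlap, and the 2 anterior reads came from 1 cell of region 1. More than 2 reads were present in 0 of 23 anterior cells (exact 95% interval up to 14.8%), against 35 of 38 posterior cells (92.1%, 78.6 to 98.3%). The 2 anterior reads against 8224 posterior reads put the posterior level at 1429 times the anterior level (95% interval 395.6 to 11805), and the fitted log2 fold change was −10.60 ± 1.42 (SE; edgeR, adjusted p = 0.0246). The direction held within block A (0.289 cpm anterior, 459.1 cpm in region 8, its only posterior region). It also held within block B (0 cpm in cells of regions 1 and 3, 374.6 cpm posterior). Between both groups, regions 4 to 7 had 15.5, 44.7, 93.9 and 537 cpm, so the level climbed along the trunk before region 8. The call was lost in 9 of 19 alternatives, including library size alone (adjusted p = 0.0607) and leaving out region 2, 3 or 9 (adjusted p = 0.1001, 0.0640 and 0.130).

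The other 3 Hox mRGs had unadjusted p-values under 0.05 without passing the adjusted threshold. Post-2c, of the posterior Hox class, had 0 cpm in all 3 anterior regions, against 77.5, 88.02 and 155 cpm in the posterior regions. It was detected in 0 of 23 anterior and 20 of 38 posterior cells and was at least 365-fold lower in anterior muscle, taking a floor of 3 reads over the group (adjusted p = 0.375). hox4b had 1.92, 0.793 and 16.005 cpm in anterior regions, against 92.1, 208 and 173 cpm in posterior regions (log2 fold change −5.17 ± 1.49 SE, adjusted p = 0.872). Its groups did not overlap, with 2 anterior and 30 posterior cells detected. Post-2d differed in being present in the head: it had 48.1, 2.38 and 0 cpm against 106, 260 and 322 cpm, and 71.8% of its 181 anterior reads came from 1 cell of region 1.

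Wnt pathway genes formed the largest family among the other posterior-high mRGs, though none passed the adjusted threshold. wnt11-2, a Wnt ligand, had 0 cpm in every anterior region, against 70.7, 138 and 162 cpm in regions 8, 9 and 10. It was detected in 0 of 23 anterior and 16 of 38 posterior cells and was at least 390-fold lower in anterior muscle (adjusted p = 0.239). The ligand wntP-2 had 9.07, 8.73 and 0 cpm against 362, 247 and 190 cpm, with 2 anterior and 25 posterior cells detected (log2 fold change −5.87 ± 1.36 SE, adjusted p = 0.561). These ligands are ordered oppositely within the posterior regions: wnt11-2 was highest in the tail tip and wntP-2 in region 8, a description of single region sums. The ligand wnt11-1 had 0.275, 0 and 0 cpm against 67.02, 41.2 and 102 cpm, and its 1 anterior read against 2093 posterior reads gives a posterior level 728 times the anterior level with a 95% interval of 130 to 28751. The frizzled receptor fz4-2 (dd_13186) had 0 cpm in each anterior region, against 36.2, 16.9 and 73.8 cpm, with 72.6% of its posterior reads in 1 cell of region 10. sp5, a zinc finger transcription factor that Wnt signalling induces in vertebrates, had 0 cpm in regions 1 to 3, against 50.3, 232 and 122 cpm, in 0 anterior and 18 posterior cells (at least 335-fold lower in anterior muscle, adjusted p = 0.169).

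The posterior mRGs named next have no protein match in the supplement. dd_13065 had 0, 0 and 22.8 cpm in anterior regions, against 453.6, 726 and 340 cpm in posterior regions, in 1 anterior and 29 posterior cells. dd_15686 had 0 cpm in all anterior regions, against 30.4, 12.0 and 162 cpm, in 0 anterior and 12 posterior cells. At full depth, dd_13065 was the most widely detected of the posterior mRGs named here after lox5a and hox4b. The order of dd_13065 and hox4b depended on depth. With cells thinned to equal reads, dd_13065 was detected in 26 of 37 posterior cells (70.3%) and hox4b in 21 (56.8%). In the same thinned cells lox5a was detected in 29 (78.4%) and wntP-2 in 16 (43.2%).

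Of the 6 FGFRL genes, 4 were higher in anterior muscle at an unadjusted p under 0.05, with their highest level in region 1, and none passed the adjusted threshold. ndl-2 had 500, 97.6 and 36.9 cpm in regions 1 to 3, against 0 cpm in each of regions 8 to 10. It was detected in 14 of 23 anterior cells (8, 4 and 2 cells by region) and 0 of 38 posterior cells, and its 2139 anterior reads against none put it at least 2051-fold higher in anterior muscle (adjusted p = 0.159). ndl-5 had 114, 28.2 and 1.94 cpm against 0 cpm throughout the posterior regions, in 9 anterior and 0 posterior cells (at least 468.9-fold higher). ndl-4 and ndl-1 were almost confined to the head tip: ndl-4 had 703, 0.793 and 0 cpm against 0, 2.11 and 0.0606 cpm. ndl-1 had 168, 0 and 0.970 cpm against 0, 0 and 0.424 cpm, so for both the anterior value rests on region 1. zic-2, a zinc finger transcription factor, reached further back with 350, 553.4 and 3.40 cpm in anterior regions, against 18.8, 2.11 and 4.79 cpm in posterior regions. In zic-2 the groups overlapped, because region 3 lay below regions 8 and 10, and 50.8% of its anterior reads came from 1 cell of region 2.

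**Figure D2:**
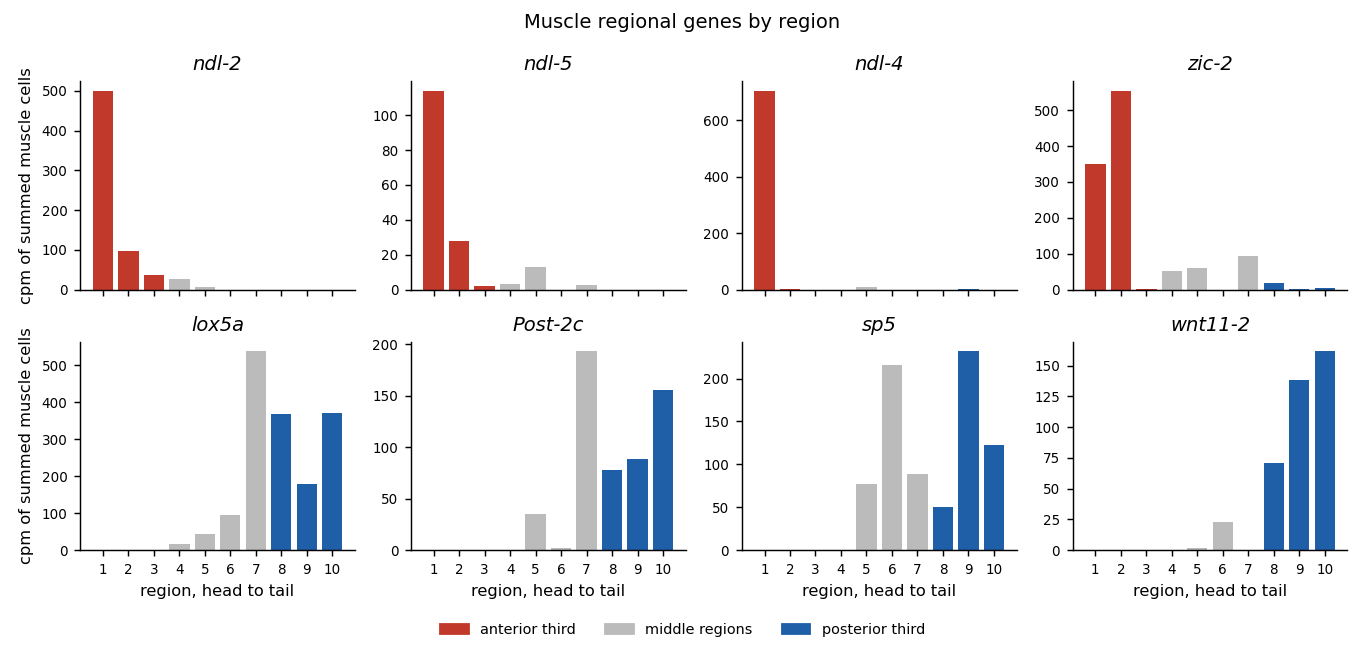
Level in cpm of the summed muscle cells (bars) in each of the 10 regions for 4 anterior-high and 4 posterior-high mRGs, with anterior regions red, middle regions grey and posterior regions blue. ndl-2 declines over regions 1 to 3 (500, 97.6 and 36.9 cpm), whereas lox5a is already at 537 cpm in region 7.

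Of the 44 mRGs, 9 had an unadjusted p under 0.005, against 43 of all tested transcripts (0.368%). As a group, 8 of the 44 had an unadjusted p under 0.05 with a higher anterior level and 17 with a lower one, 1 of them called. Over all tested transcripts these shares are 0.942% and 4.49%. By family, 4 of 6 FGFRL genes were higher and 0 lower (median log2 fold change 7.90), 1 of 18 Wnt pathway genes was higher and 8 lower (median −1.22), 0 of 4 Hox genes was higher and 4 lower (median −7.89), and 3 of 16 other mRGs were higher and 5 lower (median −2.35). Every anterior region lay above every posterior region for 5 mRGs and below for 19, against 3.8% and 5.97% of all tested transcripts. The medians stand beside −0.25 over all tested transcripts. In non-muscle cells the 44 mRGs together summed to 1794.1 and 1365.4 cpm in regions 1 and 3. In regions 8, 9 and 10 they summed to 989.31, 359.75 and 2567.7 cpm. Each of these sums lay below that of muscle cells of the same region. Single mRGs differed: in these non-muscle cells lox5a did not exceed 22.7 cpm in a region sum and ndl-2 was at 0. By contrast, ndl-4 had 310 and 81.5 cpm in non-muscle cells of regions 1 and 3.

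Outside the mRGs, transcripts higher in anterior muscle were detected in few cells. Of the 12 with the lowest p that the supplement names, p-values were 3.26e-05 to 0.0246 with none past the adjusted threshold, and 11 were detected in 10 cells or fewer. For 9 of the 12, a single cell gave more than 50% of the anterior reads. In 8 every anterior region lay above every posterior one, which held for 3.8% of all tested transcripts. That count is favoured by the choice of the lowest p. It is also favoured by the pool, since many transcripts in the supplement were picked by the study for anterior-posterior difference in these same cells. XPO5, which exports microRNA precursors from the nucleus, had 33.8, 407.4 and 282 cpm in regions 1 to 3, against 0.232, 0 and 0.0606 cpm in regions 8 to 10. It was detected in 4 of 23 anterior and 0 of 38 posterior cells, with 1731 anterior against 2 posterior reads (2490 times, 95% interval 688 to 20575, adjusted p = 0.132). A single cell of region 2 gave 59.3% of the anterior reads, and all 5 anterior cells of block B were at 0. In non-muscle cells XPO5 ran the other way, with 4.51 and 0 cpm in regions 1 and 3, against 82.4, 0 and 98.2 cpm in regions 8, 9 and 10.

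GDAP2, a protein with a macro domain, had 9.07, 72.6 and 312 cpm in anterior regions, against 0.232, 0 and 0.0606 cpm, from 3 anterior cells of which 1 gave 74.9% of the reads. Its anterior cells were all of block A, and within block B it was at 0 cpm in anterior and 0.112 cpm in posterior cells. KCNT1, a sodium-activated potassium channel, had 28.0, 210 and 64.0 cpm against 0, 0 and 1.94 cpm. dd_17790 was the most even of these, with 22.0, 29.0 and 17.9 cpm in anterior regions, against 0 cpm in each posterior region. It was detected in 5 anterior cells, was at 21.5 cpm in anterior block A and 31.8 cpm in anterior block B, and was at least 182-fold higher in anterior muscle (p = 0.0101, adjusted p = 0.872). ACOX3, a peroxisomal enzyme of branched fatty acid oxidation, was the most widely detected, in 10 of 23 anterior and 7 of 38 posterior cells. It had 173, 292 and 372 cpm against 21.3, 24.6 and 58.0 cpm (log2 fold change 2.63 ± 0.95 SE, p = 0.0147, adjusted p = 0.872), and regions 4 to 7 had 442.3, 179, 86.2 and 0 cpm.

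PC-2, a prohormone convertase of neuropeptide-producing cells, had 9.62, 616 and 58.7 cpm against 0.464, 4.93 and 17.2 cpm, so the groups overlapped. ROCK2, a protein kinase, had 101.2, 0 and 0 cpm against 0, 0 and 0.0606 cpm, with 82.1% of its anterior reads in 1 cell. dd_5401, dd_11924 and dd_9847 were detected in 6, 6 and 4 anterior cells, against 4, 0 and 1 posterior cells. Among transcripts that the supplement does not name, dd_Smed_v4_12122_0_1 had the lowest p, with 149, 428.4 and 365 cpm in anterior regions against 21.3, 15.5 and 1.64 cpm in posterior regions, in 6 anterior and 3 posterior cells. dd_Smed_v4_12537_0_1 followed, with 14.3, 132 and 38.8 cpm against 0 cpm throughout, from 1 cell in each anterior region (at least 445-fold higher).

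The 12 posterior-high transcripts named outside the mRGs had p-values of 3.39e-05 to 0.00343, none past the adjusted threshold. Of these, 8 were detected in 10 cells or fewer, and 7 had more than 50% of the posterior reads in 1 cell. In 10 every anterior region lay below every posterior one, which held for 5.97% of all tested transcripts. That count is likewise favoured by the choice of the lowest p and by the study's earlier selection of many of these transcripts. WDR36, a factor of small ribosomal subunit assembly, had 0 cpm in regions 1 to 3, against 51.7, 122 and 125 cpm in regions 8 to 10. It was detected in 0 anterior and 7 posterior cells, and 1 cell of region 10 gave 78.1% of the pooled reads (at least 304-fold lower in anterior muscle, adjusted p = 0.402). By region, 1, 4 and 2 of the 7 cells were of regions 8, 9 and 10. dd_11512 had 0 cpm in anterior regions, against 118, 59.9 and 46.7 cpm, in 0 anterior and 9 posterior cells (at least 168-fold lower, adjusted p = 0.853).

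LMBR1L, a membrane protein of the lipocalin receptor family, had 0 cpm in all anterior regions, against 176, 14.4 and 58.0 cpm in posterior regions. Its 9 posterior cells were 4 of region 8, 1 of region 9 and 4 of region 10, no cell gave more than 37.8% of the reads, and its posterior level was 199, 42.99 and 167 cpm in blocks A, B and C (at least 204-fold lower in anterior muscle, adjusted p = 0.872). In non-muscle cells LMBR1L was present on both sides, with 45.1 and 23.9 cpm in regions 1 and 3, against 84.7, 0 and 10.4 cpm in regions 8 to 10. NOS1AP, an adaptor of neuronal nitric oxide synthase, had 3.02, 0 and 0 cpm against 436, 21.5 and 203 cpm, from 5 posterior cells. Within block A it was at 1.59 cpm in anterior and 1.19 cpm in posterior cells, the latter all of region 8.

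dd_7534, a transcript with a predicted G protein-coupled receptor domain, had 0.550, 0 and 0 cpm in anterior regions, against 37.6, 46.8 and 154 cpm, in 0 anterior and 10 posterior cells. LINGO4, a leucine-rich repeat membrane protein, had 0.275, 0 and 0 cpm against 43.4, 119 and 6.31 cpm. SLC17A5, the lysosomal sialic acid exporter, had 0.275, 0 and 0 cpm against 8.12, 47.9 and 139 cpm, with 93.0% of its posterior reads in 1 cell of region 10. Its posterior value in region 10 therefore rests on that cell.

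**Figure D3:**
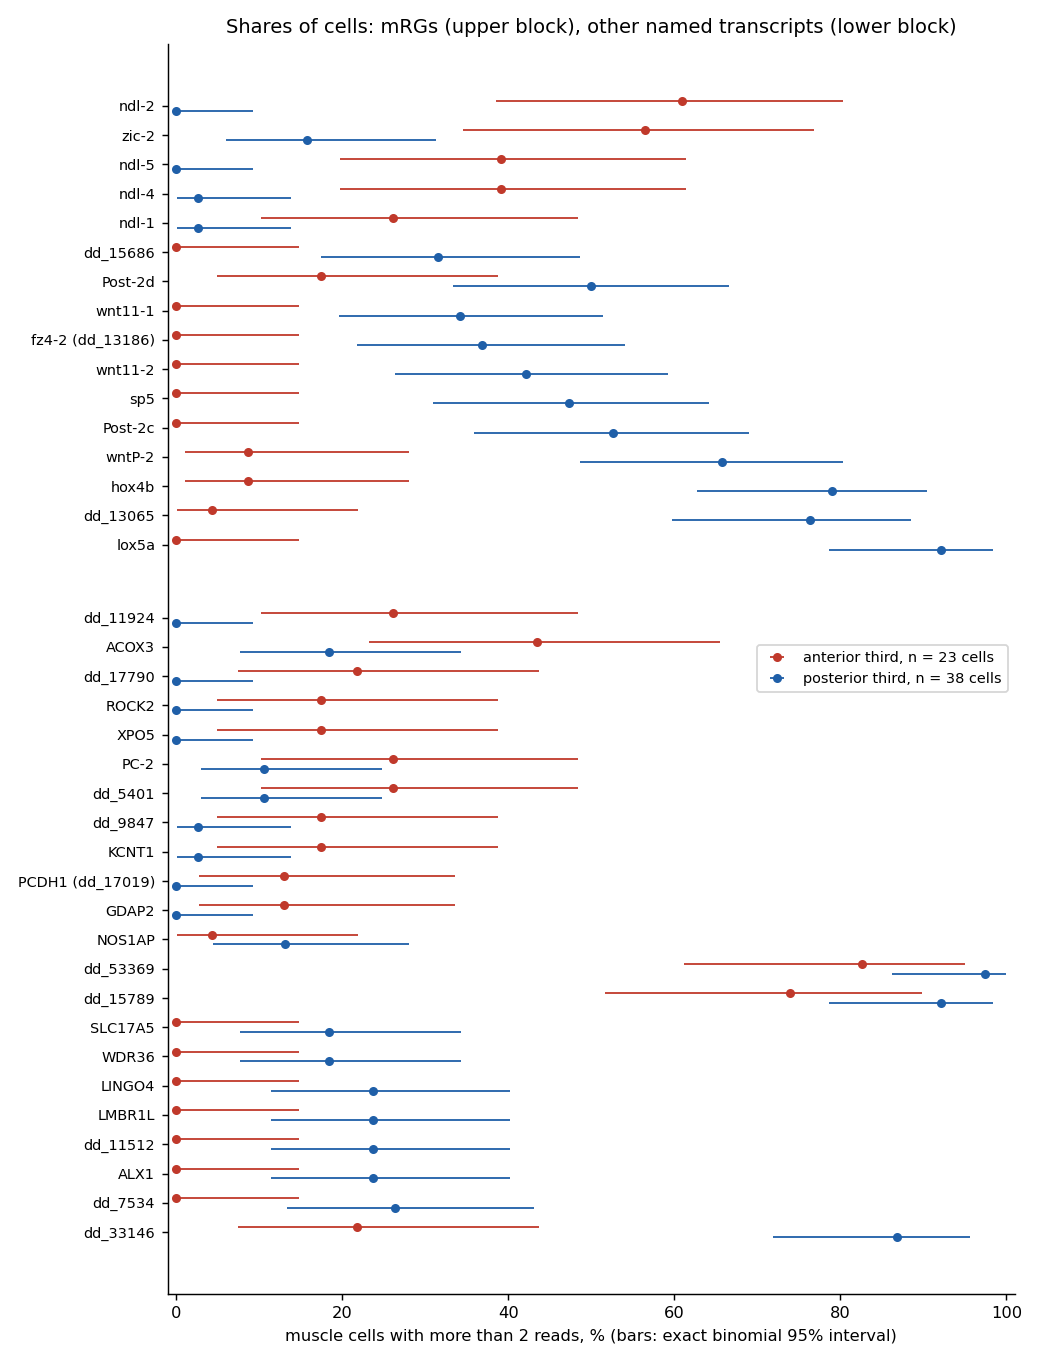
Share of muscle cells with more than 2 reads in anterior (red, n = 23) and posterior (blue, n = 38) cells, with exact 95% binomial intervals, for the named mRGs (upper block) and other named transcripts (lower block). lox5a separates both groups most widely, 0% against 92.1%, while XPO5 is found in 4 anterior and 0 posterior cells with intervals that overlap.

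Among the posterior-high transcripts, 4 were concentrated in posterior cells of number block C. Whether these 4 sequences come from the planarian itself was not tested. ALX1 is among the transcripts for which the study's screen recorded in situ signal in the nervous system. dd_33146 had 7.70, 14.3 and 2.43 cpm in anterior regions, against 74.0, 2148 and 1107 cpm in posterior regions (log2 fold change −7.71 ± 1.25 SE, adjusted p = 0.132). In posterior cells it reached 4668 cpm in block C, against 180 cpm in block A and 82.9 cpm in block B. The difference was also present within block A (6.78 cpm anterior, 180 cpm in region 8) and within block B (17.04 cpm anterior, 82.9 cpm posterior). dd_53369 had 31.1, 71.4 and 99.4 cpm against 108, 10516 and 4996 cpm (log2 fold change −6.92 ± 1.54 SE, adjusted p = 0.872), with 22304 cpm in posterior block C, 338 cpm in posterior block A and 130 cpm in posterior block B. dd_15789 had 16.5, 83.3 and 37.3 cpm against 36.4, 2255 and 1174 cpm, so region 8 lay below anterior regions 2 and 3. Its posterior level was 5080 cpm in block C, against 73.6 cpm in block A and 43.6 cpm in block B.

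ALX1, a homeobox protein match, had 0 cpm in regions 1 to 3, against 4.64, 491.5 and 177 cpm in regions 8 to 10 (0 anterior and 9 posterior cells, at least 501.97-fold lower in anterior muscle, adjusted p = 0.159). Posterior cells had 0 cpm of it in block A, 0.112 cpm in block B and 877 cpm in block C. The region 5 sum reached 2602 cpm, above every posterior region, but 12 of its 23 muscle cells were at 0. Only 1 cell of region 5 exceeded 1000 cpm, a block C cell at 157160 cpm. Over the 61 cells, Spearman's rho of dd_53369 was 0.87 with dd_15789, 0.71 with dd_33146 and 0.51 with ALX1, as a description over cells of both groups that share libraries, regions and depth. It was 0.48 with dd_Smed_v4_185_0_1 and 0.47 with dd_1, so the value for ALX1 does not set it apart. Of 9 posterior muscle cells above 1000 cpm of dd_53369, 8 were in block C, and in those 8 the reads of dd_53369 were 3.85 to 5.74 times those of dd_15789 and 1.22 to 7.29 times those of dd_33146. Together dd_53369, dd_33146 and dd_15789 took between 0.224% and 19.96% of the reads of those 8 cells, with a median of 2.46%.

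Block C cells of region 8 were not high. Median dd_53369 was 48.2, 1979 and 54845 cpm in muscle cells of block C from regions 8, 9 and 10 (4, 8 and 3 cells). In non-muscle cells of block C the medians in regions 8, 9 and 10 were 17.5, 2104 and 14656 cpm (5, 3 and 4 cells), so high values also occurred outside muscle. Block B cells of region 10 had medians of 133 cpm in muscle and 136 cpm in non-muscle cells. The part of the number block in these values was not tested, and without the 15 posterior cells of block C, an alternative added after seeing the data, the comparison had 4 calls in place of 1.

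**Figure D4:**
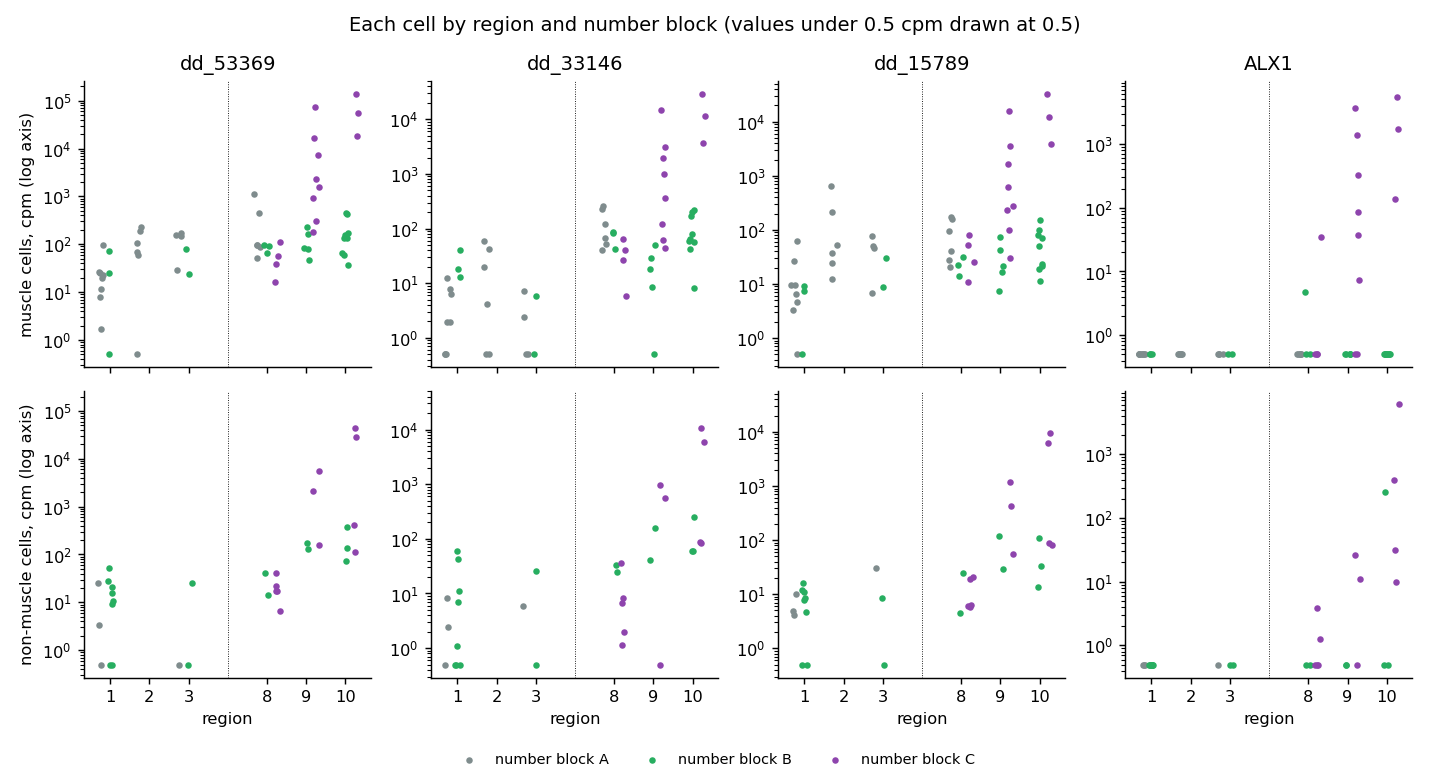
Level in cpm of 4 transcripts in each muscle cell (top row) and non-muscle cell (bottom row) of regions 1 to 3 and 8 to 10, on a log axis, with colours for number blocks A (grey), B (green) and C (purple). In both classes the highest values are cells of block C from regions 9 and 10, up to 138060 cpm of dd_53369 in a muscle cell of region 10.

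A further 4 transcripts were abundant and detected in all 61 cells. dd_Smed_v4_37_0_1, which the supplement does not name, had 15924, 20561 and 30873 cpm in anterior regions, against 47583, 36488 and 43833 cpm in posterior regions (log2 fold change −1.33 ± 0.27 SE, adjusted p = 0.244). In these sums every anterior region lay below every posterior one, and regions 4 to 7 had 32734, 28493, 33635 and 42071 cpm. The difference was present within block A (21656 cpm anterior, 42344 cpm in region 8) and within block B (18094 cpm anterior, 47787 cpm posterior). It passed the threshold with number block as a covariate. Non-muscle cells had lower levels, 116 and 3905 cpm in regions 1 and 3, against 5329, 7204 and 12394 cpm in regions 8 to 10. Among single cells the groups overlapped, with 7086 to 45321 cpm in anterior and 2239 to 81148 cpm in posterior cells. The median was 20158 cpm in anterior and 35663 cpm in posterior cells, and posterior cells of block C had a median of 14218 cpm. By region the medians per cell were 15410, 18916 and 28091 cpm in regions 1 to 3, against 39031, 18576 and 40920 cpm in regions 8 to 10. By this measure region 9 lay below regions 2 and 3.

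dd_Smed_v4_185_0_1 had 1349, 632 and 1025 cpm in anterior regions, against 4608, 7314 and 1654 cpm in posterior regions (log2 fold change −2.71 ± 0.58 SE, adjusted p = 0.375). LPCAT1, an enzyme that remakes phosphatidylcholine, had 362, 174 and 256 cpm against 796, 2398 and 288 cpm, so region 1 lay above region 10 (log2 fold change −2.76 ± 0.76 SE, adjusted p = 0.872). dd_1, named here after its values were seen because its in situ signal lies in the gut, had 647, 322 and 852 cpm against 1578, 5452 and 629 cpm, so the groups overlapped. These 3 transcripts varied together over the 61 cells, with Spearman's rho of 0.93 between dd_1 and dd_Smed_v4_185_0_1, 0.93 between dd_1 and LPCAT1, and 0.91 between dd_Smed_v4_185_0_1 and LPCAT1, again as a description. Within block A the direction was kept, with region 8 as the only posterior region. dd_Smed_v4_185_0_1 had 604 cpm in anterior and 3179.5 cpm in posterior cells there, and LPCAT1 171 and 306 cpm. Unlike for dd_Smed_v4_37_0_1, the direction was not kept within block B. The log2 fold changes fitted in block B alone were 0.29 for dd_Smed_v4_185_0_1 and 0.30 for LPCAT1. They stand beside a median of −1.42 over all tested transcripts in that fit. There dd_Smed_v4_185_0_1 was at 3427 cpm in anterior and 1482 cpm in posterior cells, and LPCAT1 at 851 cpm in anterior and 250 cpm in posterior cells. The posterior regions of block B differed among themselves: median dd_1 per cell was 936, 3981 and 303 cpm in regions 8, 9 and 10 (3, 5 and 9 cells), against a median of 2495 cpm in the 5 anterior cells, so region 9 lay above the anterior cells and region 10 far below. Posterior block C was highest for both, with 7851 cpm of dd_Smed_v4_185_0_1 and 2080 cpm of LPCAT1, and the part of the block in the difference was not tested.

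**Figure D5:**
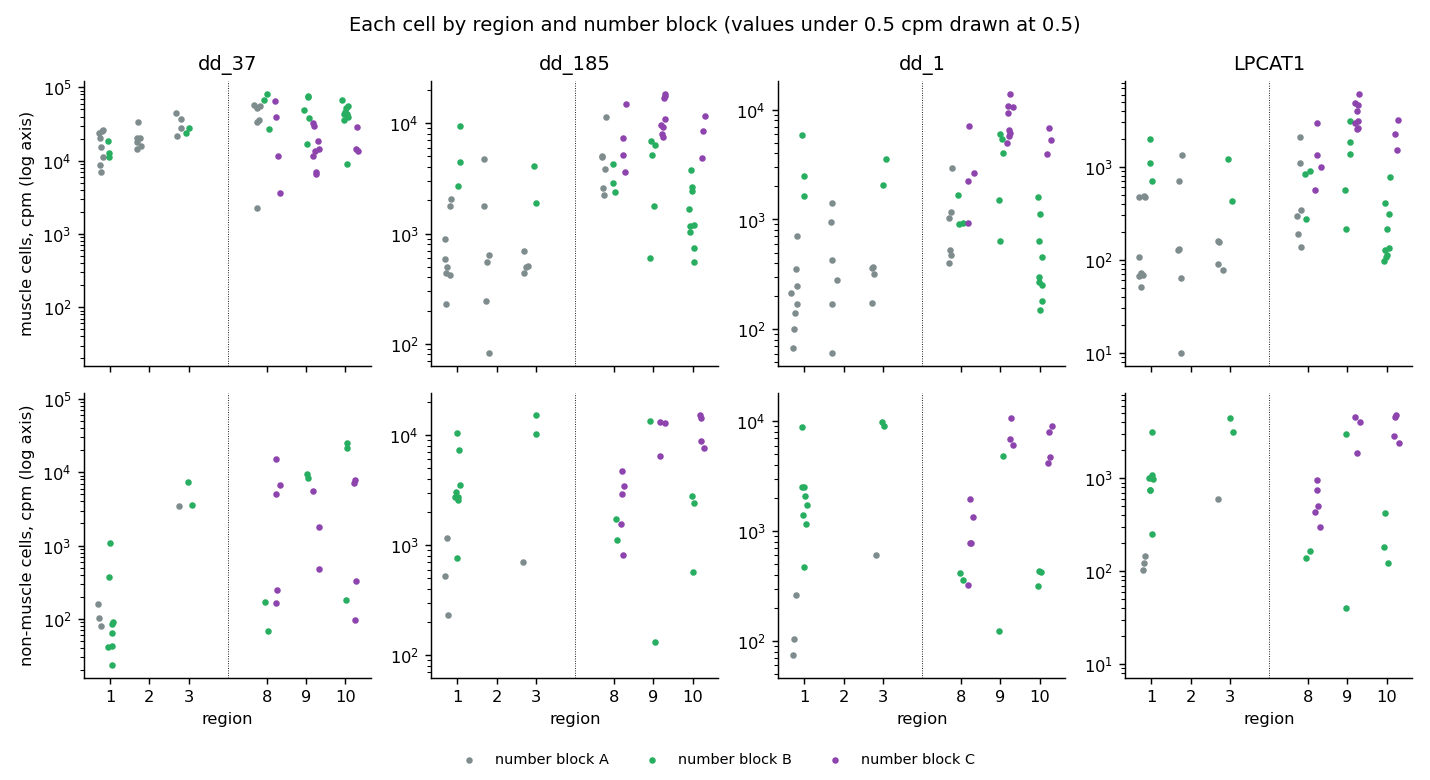
Level in cpm of 4 abundant transcripts in each muscle cell (top row) and non-muscle cell (bottom row) of regions 1 to 3 and 8 to 10, on a log axis, coloured by number block. For dd_185, dd_1 and LPCAT1 the anterior cells of block B tend to lie above those of block A, with dd_185 medians of 4068 and 530 cpm, while for dd_37 the ranges of both blocks overlap.

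Cadherins are adhesion molecules, and protocadherins form their largest branch in vertebrates. Of 11 family members in the supplement, 10 were tested, with 1 higher and 2 lower in anterior muscle at an unadjusted p under 0.05 (0.942% and 4.49% of all tested transcripts) and none past the adjusted threshold. PCDH1 (dd_17019) had 225, 0 and 0 cpm in anterior regions, against 0 cpm throughout the posterior regions, from 3 cells of region 1 (at least 783.4-fold higher). PCDH1 (dd_23085) had 0 cpm in anterior regions, against 160, 0.704 and 9.16 cpm in posterior regions, in 6 posterior cells (at least 97.5-fold lower). PCDH1 (dd_14344) had 0 cpm against 45.0, 0 and 8.85 cpm, in 4 posterior cells (at least 39.4-fold lower). The 7 others, PCHD1 (spelled as in the supplement), both PCDH11 transcripts, PCDH17, PCDH9 (dd_14613), FAT4 and PCDH1 (dd_13412), had p-values of 0.125 to 0.876. PCDH9 (dd_7930) had too few cells to test, with 0 anterior and 2 posterior cells.

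The cells carried the muscle label's defining transcripts on both sides. The 12 muscle markers (collagens, filamin, calponin, myosin heavy chain, troponin and others, fixed by the study on these cells) summed to 35253, 10686 and 15960 cpm in anterior regions, against 16949, 16049 and 32571 cpm in posterior regions and at most 799 cpm in non-muscle cells. At an unadjusted p under 0.05, 0 of 12 were higher and 1 lower, beside 0.942% and 4.49% of all tested transcripts. Their median log2 fold change was −0.67, beside −0.25 over all tested transcripts. With library size alone these medians were −0.26 and 0.08. Of the 12 epidermal lineage markers, 6 were detected widely enough to test, and the list summed to 111, 130 and 38.8 cpm in anterior muscle against 148, 39.4 and 236 cpm in posterior muscle. COTL1 was at 0 in all 6 regions, and VIL1, FABP7 and P53 were at 0 in the anterior ones, whereas EPB41L2 reached 78.9 cpm in region 1, TAGLN3 123 cpm in region 2 and CD151 34.4 cpm in region 3. The 2 members lower at an unadjusted p under 0.05 were actins, ACTG1 and beta-actin (dd_285), which form filaments in most cells.

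The 12 neoblast markers were all tested and summed to 5544, 12862 and 11444 cpm in anterior regions, against 7586, 3648 and 4280 cpm in posterior regions. In non-muscle cells they summed to 1784.5 and 4569 cpm in regions 1 and 3, and to 6581, 3056 and 5924 cpm in regions 8, 9 and 10. Muscle thus had the higher sum in regions 1, 3, 8 and 9 and the lower in region 10, so these sums do not tell neoblasts from muscle. The member with an unadjusted p under 0.05 was PC-2, described above. The list's median log2 fold change was 0.36, beside −0.25 over all tested transcripts. Of 12 tested transcripts with in situ signal in the gut, 1 was higher and 4 lower at an unadjusted p under 0.05. That list summed to 997, 510.5 and 1574 cpm in anterior regions, against 1877, 5839 and 1217 cpm, most of it dd_1. Transcripts with signal in the nervous system gave 3 higher and 9 lower of 58, and those with signal in the epidermis 2 higher and 1 lower of 18, beside 0.942% higher and 4.49% lower among all tested transcripts. Among transcripts named above, the gut list includes dd_7534, the epidermis list ROCK2, and the nervous system list dd_11924 and ALX1. The part of these cell types in the differences named above was not tested.

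The transcripts screened by in situ hybridization on the anterior or posterior side and not kept as mRGs were picked by the study from this same comparison, so their direction is fixed by that choice. Of 36 anterior ones tested, 16 were higher and 0 lower at an unadjusted p under 0.05 (median log2 fold change 3.99). Of 37 posterior ones, 0 were higher and 30 lower (median −8.39), and 14 of the 37 had no anterior read at all.

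Non-muscle cells from the same body positions allow the comparison to be made outside muscle. They numbered 14 anterior cells (regions 1 and 3) and 19 posterior cells. Of 11107 transcripts tested, edgeR called 0, with 526 (4.74%) at an unadjusted p under 0.05, and DESeq2 called 34. The difference between both classes, tested as an interaction in 1 model, gave 0 calls of 13480 with edgeR, with 757 (5.62%) at an unadjusted p under 0.05, and 261 calls with DESeq2. Whether the lox5a difference is particular to muscle was not resolved by this test (interaction log2 fold change −4.03, p = 0.235, adjusted p = 0.986), and non-muscle cells had 0.282 and 0 cpm in regions 1 and 3 against 0.130, 22.7 and 0.560 cpm in regions 8 to 10. For sp5, which had 0.282 and 260 cpm in anterior non-muscle cells against 72.9, 6.85 and 22.4 cpm in posterior ones, the interaction p was 0.000321 (adjusted p = 0.840).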

How the data were processed

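Single cells were sequenced with SmartSeq2. The authors trimmed the reads with cutadapt, aligned them to the dd_Smed_v4 transcriptome with bowtie 1 and its best-hit option (release not given in the sources used here), discarded prominent mitochondrial and ribosomal RNAs, and summed isotigs. The deposited read counts cover 26560 transcripts and are not normalized. CASAVA 1.7.0 is named in the submitters' processing notes. The authors' deposited SCDE tables hold log2 ratios with bounds, Z-scores and corrected Z-scores of their own comparisons and were not used.

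The muscle cells' counts were added up by region. A transcript entered the test if 3 or more of the 61 cells had over 2 reads, and was tested with edgeR 4.0.16 (R 4.3.3; robust quasi-likelihood, TMM, library size from all reads, Benjamini-Hochberg threshold 0.05). Anterior cells held 8219749 reads and posterior cells 23645690, and posterior cells ranged from 19205 to 3884642 reads. Alternatives used DESeq2 1.42.0, limma 3.58.1, other filters and scalings, thinning to 50000 reads (1 posterior cell left out), the number blocks, and leaving out each region. Python 3.11.15 with scipy 1.17.1 gave the exact tests and intervals.

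Named transcripts were those past the threshold, the 12 with the lowest p in each direction among transcripts the supplement names outside the mRGs, the 2 in each direction among those it does not name, mRGs with p under 0.005 or the 2 to 4 lowest p of a family, and all cadherins. The members and lists were chosen with earlier results of these data known. Of 315 list entries, 2 were matched by component identifier, Post-2d among them. A transcript that the rule names, counted in the summaries, is not reported here.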

Additional observations from a re-analysis of the deposited data

How the results depend on the processing

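The number of transcripts called between anterior and posterior muscle, 1 in the reported fit, depended on the processing. It was 0 with library size alone, limma, a filter at 10 cells, the robust estimate off, all 10 regions in the fit, and block A alone. It was 2 with number block as a covariate, 4 without block C, 11 with cells thinned to equal reads, 12 in block B alone, 37 without a filter, and 196 with DESeq2. Leaving out each region in turn gave 0 to 8 calls: 0 without region 2 or 9, 1 without region 3 (dd_13065 in place of lox5a), 2 without region 1, 6 without region 8 and 8 without region 10. In non-muscle cells there were 34 calls with DESeq2 and 0 to 1 on leaving out a region (1 without region 9). For the difference between the classes there were 261 with DESeq2, 15 without a filter, and 0 to 20 on leaving out a region (7 without region 8, 20 without region 10). The adjusted p of lox5a ran from 1.24e-08 to 0.576, and its direction held throughout. Over 53 named transcripts, 862 of 972 alternative values kept direction and side of the threshold, 66 newly passed it, 9 (lox5a) no longer did and 35 reversed, and 39 transcripts never reversed. The cause was not tested, except that block B alone or A alone and the left-out regions hold fewer cells. Block A alone also holds no posterior region but region 8.

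The reversed log2 fold changes were as follows. In block B alone they were −3.24 for XPO5, −3.24 for GDAP2, 0.30 for LPCAT1, 0.29 for dd_Smed_v4_185_0_1, −9.37 for FAT4, 0.38 for PCDH1 (dd_13412), 1.58 for PCDH9 (dd_14613), −8.49 for PCDH11 (dd_17110), −0.59 for PCDH11 (dd_15181) and −3.05 for PCDH17. XPO5 and GDAP2 each had 0 cpm in anterior and 0.112 cpm in posterior cells of block B, so −3.24 rests on almost no reads. In block A alone, where region 8 is the only posterior region, they were 0.20 for NOS1AP, 9.22 for PCDH1 (dd_13412) and 8.59 for PCHD1. Without region 1 they were −1.31 for ROCK2, −1.40 for ndl-4, −9.85 for FAT4, 0.22 for PCDH1 (dd_13412), −9.39 for PCDH11 (dd_17110), −11.38 for PCDH11 (dd_15181) and −9.86 for PCDH17. Without region 10 they were 1.47 for PCDH1 (dd_13412) and 1.78 for PCDH9 (dd_14613). With block as a covariate they were −5.57 for FAT4, 1.64 for PCDH1 (dd_13412), 1.42 for PCDH9 (dd_14613), −4.30 for PCDH11 (dd_17110) and −1.55 for PCDH17. With limma they were 0.63 for PCDH1 (dd_13412), −1.54 for PCDH11 (dd_17110), −0.63 for PCDH11 (dd_15181) and −1.29 for PCDH17. Over all left-out regions the range was −1.31 to 9.71 for ROCK2, −1.40 to 11.69 for ndl-4, −9.85 to 6.94 for FAT4, −1.59 to 1.47 for PCDH1 (dd_13412), −8.98 to 1.78 for PCDH9 (dd_14613), −9.39 to 2.40 for PCDH11 (dd_17110), −11.38 to 3.46 for PCDH11 (dd_15181) and −9.86 to 2.77 for PCDH17. Thinned cells gave 0.19 for PCDH1 (dd_13412) and −0.96 for PCDH11 (dd_17110). PCDH1 (dd_13412) was at 0.0024 with library size alone and 0.099 with DESeq2.

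No paired analysis was possible because the cell numbers are not shared between both groups. Depth limits what a transcript absent from a group can show: the floor of 3 reads applies to 8219749 anterior and 23645690 posterior reads, and fitted values of such transcripts depend on the prior count. Transcripts detected in few cells rest on those cells.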
